A study of Mus musculus with 16 samples.

Results

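The interferon response genes *Stat2*, *Irf3*, *Irf9*, *Ifit1*, *Ifit3*, *Isg15*, *Ifih1*, *Trex1* and *Bst2* were followed by name in RNA-seq counts from embryonic mouse cortex, 9 genes of the 51912 listed. They were chosen by name, for their place in the pathway. RNA-seq counts came from the E15.5 cortex of 15 mice. The 7 ctrl mice comprised 5 that were wild type for *Casc5*, the gene now called *Knl1* that encodes a kinetochore scaffold, and 2 heterozygous mice, T4 and T5. In the 4 cKO mice, the *hGFAP-Cre* transgene, driven by the human *GFAP* promoter, deleted *Knl1* in cortical neural progenitor cells, and in the 4 dKO mice it deleted *Knl1* together with *Trp53*, which encodes p53. Both *hGFAP-Cre* groups are conditional models in which cells outside the Cre lineage, such as microglia and vessels, keep both genes, all mice were of mixed background and each was an individual embryo of either sex. Mice carry the names of the labels, which are T3, T4, T5, S1, S3, 2 and 6 for ctrl, 5, 7, S2 and F3 for cKO, and T2, T8, F1 and F7 for dKO.

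Missegregated chromosomes can form micronuclei, and DNA that reaches the cytosol can be bound by the sensor cGAS, which acts through STING and TBK1 to activate the transcription factor IRF3 and so the interferon genes. Secreted type I interferon then acts on its receptor, which leads STAT2 and IRF9 into the complex ISGF3, and this binds the interferon-stimulated response element (ISRE) in the promoters of interferon-stimulated genes. In the brain, microglia are strong producers of and responders to interferon. The question here was whether transcripts of this pathway differed in level where chromosomes missegregate after *Knl1* deletion, with p53 present in cKO and absent in dKO.

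The stretches of promoter that hold an ISRE core upstream of the start are shown because this core is what the effector genes have in common by sequence. The core of the ISRE was searched as GAAA, any 2 bases and GAAA again on both strands, overlapping matches included, in RefSeq promoter windows of GRCm38.p6 that run from 250 bases before a gene's start to 50 after it. All 9 genes had a window, and 6 of them held the core, against 3.99% of the 27025 gene symbols with a window. All 4 effectors held it, as did *Stat2* and *Ifih1*, and it was not found in the windows of *Irf3*, *Irf9* and *Trex1*. A start here is that of RefSeq and can differ from the gene spans given below, which come from GENCODE. The *Irf9* windows, chr14:55603735-55604034 and chr14:55604329-55604628, lie inside its span, so sequence upstream of that span was not searched. In *Ifih1* the match lay after the start. The stretches are printed 5′ to 3′ on the strand of the gene, with the core, read as TTTC, any 2 bases and TTTC where it lies on the other strand, in capitals.
Stat2: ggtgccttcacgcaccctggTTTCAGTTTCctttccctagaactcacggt
Ifit1: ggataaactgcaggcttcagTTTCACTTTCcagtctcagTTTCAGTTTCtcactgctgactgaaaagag
Ifit3: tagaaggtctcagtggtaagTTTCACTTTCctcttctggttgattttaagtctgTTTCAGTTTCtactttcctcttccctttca
Isg15: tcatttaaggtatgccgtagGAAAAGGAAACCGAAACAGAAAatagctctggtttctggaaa
Bst2: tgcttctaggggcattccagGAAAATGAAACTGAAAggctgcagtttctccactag

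The *Stat2* stretch lies at chr10:128270256-128270305 on the plus strand, and its core begins 222 bases before the start. *Ifit1* (chr19:34640765-34640833, plus strand) and *Ifit3* (chr19:34583353-34583436, plus strand) each have 2 separate cores, beginning 104 and 156 bases before the start. *Isg15* (chr4:156200855-156200916, minus strand) has 3 overlapping cores in one run and *Bst2* (chr8:71537567-71537622, minus strand) has 2, beginning 78 and 130 bases before the start. A match describes letters only and was not measured as a binding site.

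Libraries were made in 3 batches from 4 litters, and the 2 libraries of cKO mouse S2 were added and used as 1 mouse. Mice of the ctrl group held from 399832 to 3266227 counts, those of dKO from 552186 to 5396803, and those of cKO from 4178461 to 8800987, all deeper than any ctrl mouse. A level is given in TMM-scaled CPM, the share of a mouse's counts that fall on a gene times 1000000. A count of 3 corresponded to 7.50 CPM in the shallowest ctrl mouse and to 0.341 CPM in the deepest cKO mouse, before TMM scaling. All intervals and limits that come from counts cover counting error only. *Knl1* was at 62.8 ± 13.5 CPM in ctrl (SD, n = 7), 58.2 ± 14.9 CPM in cKO and 49.8 ± 11.7 CPM in dKO (SD, n = 4 each). Its log2 fold change against ctrl was -0.13 in cKO (SE 0.18) and -0.37 in dKO (SE 0.20), with an edgeR FDR of 1 in both. *Trp53* was at 30.5 ± 10.6, 28.3 ± 4.26 and 25.1 ± 5.26 CPM. Neither value checks the labels, because the counts take in parts of the genes outside a floxed segment and cells outside the Cre lineage.

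What the counts cover decides which of the 9 genes can be read. Of 434 protein-coding genes whose whole span lies within other genes on the same strand of GRCm38, 98.6% had no count in any library, against 28.1% of 720 genes that lie within genes of the other strand only and 27.5% of 12076 that overlap no gene. *Trex1*, which encodes the main exonuclease for cytosolic DNA and lies at chr9:109057933-109059734 on the minus strand, is of the first kind. All of its span is shared with *Atrip* on the same strand, and 95.8% of the 50-base words of its transcripts also occur in *Atrip* transcripts. *Trex1* had no count in any of the 15 mice, and *Atrip* had none either although 88.9% of its span is free, so the genes as counted may differ there from the GRCm38 annotation used here. The count of 0 for *Trex1* can therefore not be told apart from reads that were set aside, and no level is given for it. The other 8 genes had at least 98.1% of their span free on their strand. *Ifit3* shares 51.2% of its 50-base words with its close copy *Ifit3b*, so its level is uncertain where a read could come from either.

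Of the 9 genes, 4 had at least 20 counts over the mice of a comparison and were given a fold change, *Stat2*, *Irf3*, *Irf9* and *Ifih1*. The other 4 that can be read, *Ifit1*, *Ifit3*, *Isg15* and *Bst2*, had between 2 and 14 counts over all 15 mice. Per kb of gene span, introns included, the mean level over 15 mice was 1.90 ± 0.81 CPM per kb for *Irf3* (SD), followed by 1.08 ± 0.37 for *Irf9* and 0.736 ± 0.25 for *Stat2*. *Irf3* was above *Irf9* in 14 mice and *Irf9* above *Stat2* in 13 mice, while the mean difference per mouse was smaller than its SD for both pairs (0.815 ± 0.96 and 0.344 ± 0.39 CPM per kb). *Stat2* was above the next gene, *Bst2* at 0.118 ± 0.23 CPM per kb, in 14 of 15 mice. Below it came *Ifit3*, *Isg15* and *Ifih1* at 0.0344, 0.0333 and 0.0274 CPM per kb and *Ifit1* at 0.00365 CPM per kb, with SDs larger than or close to the means, and the order among these 5 did not exceed their spread. Per kb of exon, *Stat2* moved above *Irf9* (2.77 ± 0.94 against 1.30 ± 0.45 CPM per kb), next to *Irf3* at 2.86 ± 1.23.

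None of the 9 genes passed an FDR of 0.05 (edgeR likelihood ratio test, Benjamini-Hochberg over all 51912 genes) in any of the 4 comparisons. In cKO versus ctrl, 0 of 9 passed, against 0.16% of all genes. In dKO versus ctrl 0 of 9 passed against 0.0501%, in cKO versus dKO 0 of 9 against 0.052%, and in all 8 *Knl1*-deleted mice versus ctrl 0 of 9 against 0.025%. With so few genes called over the whole table, 0 of 9 does not set these genes apart from the rest. At an unadjusted p under 0.05, 1 of the 9 genes was found in the 4 comparisons, *Irf3* in dKO versus ctrl. Neither the quasi-likelihood F test of edgeR nor DESeq2 placed any of the 9 under an FDR of 0.05. The 3 comparisons with ctrl use the same 7 mice, and the values below are therefore given side by side. In bulk tissue, fewer cells of a type and less RNA per cell cannot be told apart.

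*Stat2* (chr10:128270559-128292849, plus strand), a STAT subunit of ISGF3, had 687 counts and the highest mean level per gene of the 9, at 16.4 ± 5.58 CPM over 15 mice. In ctrl its level ran from 6.67 to 23.7 CPM with a median of 16.0. The cKO mice 5, 7, S2 and F3 were at 16.7, 21.3, 17.1 and 9.77 CPM, and the dKO mice T2, T8, F1 and F7 at 26.5, 15.7, 16.3 and 12.8 CPM. The 3 groups overlapped through most of their range, with cKO mouse F3 low and dKO mouse T2 above every ctrl mouse on 16 counts. The log2 fold change was -0.08 in cKO versus ctrl (95% interval -0.56 to 0.40) and -0.05 in dKO versus ctrl (-0.57 to 0.47). On the fold scale these intervals span 0.676 to 1.32 and 0.672 to 1.39. Between cKO and dKO the log2 fold change of *Stat2* was 0.004 (-0.50 to 0.51). Libraries S2 and S2b of the same mouse gave 68 and 82 counts.

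**Figure D1:**
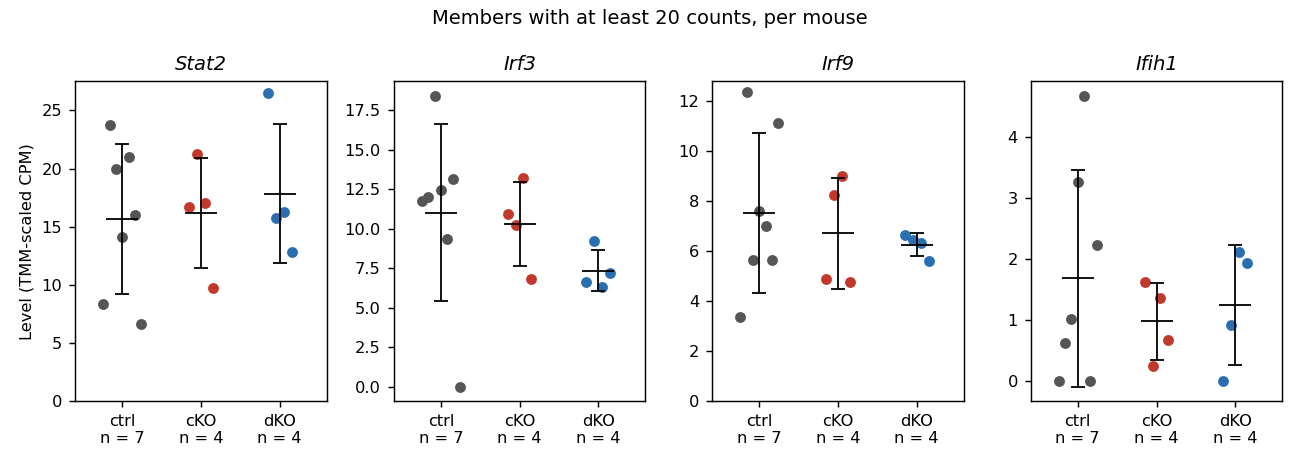
Level of *Stat2*, *Irf3*, *Irf9* and *Ifih1* in TMM-scaled CPM (y axis, a scale for each gene) for every mouse, by group (x axis). Points are mice, the horizontal bar is the mean and the error bar the SD, with n = 7 ctrl, 4 cKO and 4 dKO. The groups overlap for all 4 genes, and 1 ctrl mouse had no *Irf3* count.

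*Irf3* (chr7:44997648-45002848, plus strand), the factor that sensors activate to start interferon transcription, was the one gene of the 9 whose dKO values lay near the low end of ctrl. In ctrl, *Irf3* had a median of 12.03 CPM, a highest value of 18.4 in S3, and no count in mouse T5, which had 417440 counts in all. It was at 10.97, 10.3, 13.2 and 6.82 CPM in cKO mice 5, 7, S2 and F3. The dKO mice T2, T8, F1 and F7 were at 6.63, 9.24, 6.34 and 7.18 CPM, each below 6 of the 7 ctrl mice, while ctrl mouse T5 at 0 makes the groups overlap. The cKO littermate of F1 and F7, F3, lay between them. The log2 fold change in dKO versus ctrl was -0.78 (95% interval -1.39 to -0.17), with an unadjusted p of 0.0123 and an edgeR FDR of 1. Among genes with at least 20 counts, 2.08% were lower in dKO at an unadjusted p under 0.05. Within batch 3, which holds all 4 dKO mice and 3 ctrl mice, the log2 fold change was -0.27 (unadjusted edgeR p of 0.602). Without the litter of F1, F3 and F7 it was -0.58, and with litter in the model it was -0.10 (unadjusted edgeR p of 0.857). That litter held no ctrl mouse, so the value with litter in the model rests on T2 and T8 against T3, T4 and T5. In cKO versus ctrl the log2 fold change of *Irf3* was -0.26 (-0.77 to 0.25), and -0.29 within batch 1. In cKO versus dKO it was 0.56 (-0.004 to 1.125), and with batch in the model it was -0.05. Gene *Bcl2l12* on the other strand overlaps *Irf3*, and 79.5% of the *Irf3* span is free of it.

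*Irf9* (chr14:55603571-55610030, plus strand), the DNA-binding subunit of ISGF3, had 298 counts. Its level in ctrl ran from 3.36 to 12.4 CPM with a median of 7.00. It was 4.88, 8.25, 8.99 and 4.77 CPM in cKO mice 5, 7, S2 and F3, and 6.63, 6.47, 6.34 and 5.63 CPM in dKO mice T2, T8, F1 and F7. All cKO and dKO values fell inside the ctrl range, and the dKO mice lay close together (6.27 ± 0.44 CPM, SD, n = 4) beside ctrl (7.53 ± 3.19 CPM, n = 7). The log2 fold change was -0.23 in cKO versus ctrl (95% interval -0.84 to 0.38) and -0.37 in dKO versus ctrl (-1.05 to 0.31). Within a batch it was -0.14 for cKO and -0.28 for dKO.

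*Ifih1* (chr2:62595798-62646255, minus strand) encodes MDA5, a sensor of cytosolic double-stranded RNA whose gene is itself interferon-stimulated. It had 55 counts over 15 mice, of which 13 were in ctrl, 24 in cKO and 18 in dKO. Ctrl mice ran from 0 to 4.67 CPM with a median of 1.02, and 2 of 7 had no count. Mice 5, 7, S2 and F3 of cKO were at 1.63, 0.250, 1.37 and 0.682 CPM. Mice T2, T8, F1 and F7 of dKO were at 0, 0.924, 2.11 and 1.94 CPM on 0, 1, 7 and 10 counts. All cKO and dKO values lay within the ctrl range. The log2 fold change was -0.48 in cKO versus ctrl, with a 95% interval from -1.74 to 0.78, and 0.13 in dKO versus ctrl, from -1.20 to 1.46, so that increases of up to 1.72-fold and 2.75-fold lie within these intervals. Within batch 1 the cKO value was 0.70, of the opposite sign, and within batch 3 the dKO value was -0.16, also of the opposite sign.

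With cKO and dKO joined as 8 *Knl1*-deleted mice, the log2 fold change against ctrl was -0.07 for *Stat2* (95% interval -0.48 to 0.35), -0.43 for *Irf3* (-0.90 to 0.04), -0.28 for *Irf9* (-0.81 to 0.25) and -0.20 for *Ifih1* (-1.37 to 0.98). All 4 intervals include 0. An increase of the 3 transcription factor genes beyond 1.28-fold for *Stat2*, 1.03-fold for *Irf3* and 1.19-fold for *Irf9* lay outside them, while for *Ifih1* the interval reached 1.97-fold. These bounds hold only for the fit without batch or litter. All dKO mice were in batch 3, and the litter of F1, F3 and F7 held no ctrl mouse, so the bounds do not exclude a larger increase.

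**Figure D2:**
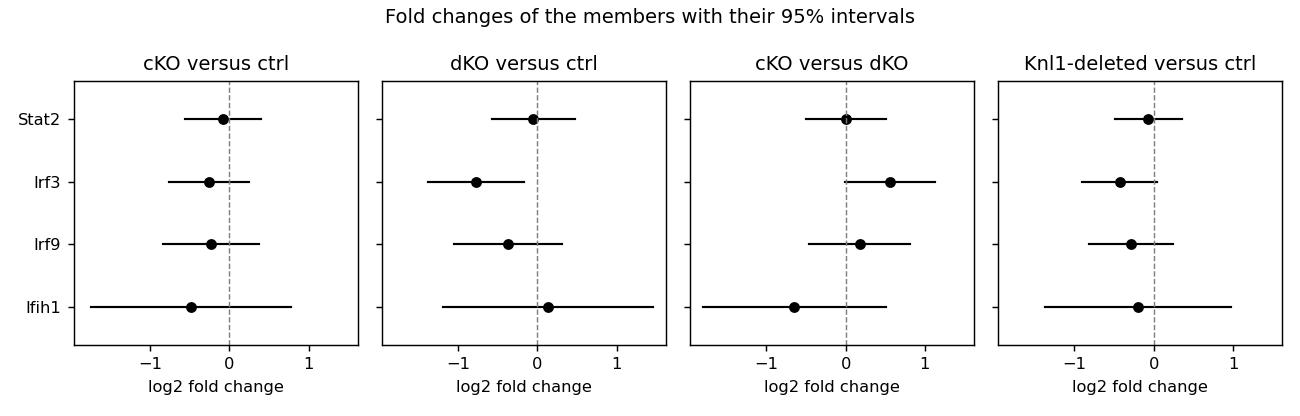
Log2 fold change (x axis) of *Stat2*, *Irf3*, *Irf9* and *Ifih1* (y axis) in the 4 comparisons, one panel each, where positive values are higher in the group named first. Points are edgeR estimates and lines their 95% intervals from the likelihood ratio test. All lines cross 0 except that of *Irf3* in dKO versus ctrl, from -1.39 to -0.17, and the *Ifih1* lines are the widest.

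The effector genes gave almost no counts in any group. *Ifit1* (chr19:34640871-34650009, plus strand), whose product binds foreign RNA ends, had 2 counts, both in cKO mouse 7. No ctrl or dKO mouse had one, which at 9443850 counts in all ctrl mice allows up to 0.318 CPM (3 counts) and at 10491923 in all dKO mice up to 0.286 CPM. *Ifit3* (chr19:34583531-34588731, plus strand), which stabilizes IFIT1 on RNA, had 2 counts in cKO mouse 7 and 1 each in cKO mouse F3 and dKO mice T2 and F1, and 0 in all 7 ctrl mice. *Isg15* (chr4:156199424-156200818, minus strand), a ubiquitin-like modifier, had 1 count in cKO mouse S2, 3 in dKO mouse F7 and 0 in all ctrl mice. Their pooled levels in cKO were 0.0861 CPM for *Ifit1* (95% Poisson interval 0.0104 to 0.311), 0.129 for *Ifit3* (0.0266 to 0.377) and 0.0430 for *Isg15* (0.00109 to 0.240). These intervals lie below or around the limit of 0.318 CPM that no count in ctrl allows, so a difference from ctrl was not detectable at this depth. In dKO, *Ifit3* pooled at 0.191 CPM (0.0231 to 0.689) and *Isg15* at 0.286 CPM (0.0590 to 0.836).

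*Bst2* (chr8:71534255-71537456, minus strand), which encodes the virus-tethering protein tetherin, was the one effector with counts in every group, 14 in 7 of 15 mice. Its counts were 2 and 1 in ctrl mice 6 and S3, 1, 1 and 4 in cKO mice 5, 7 and F3, and 3 and 2 in dKO mice T8 and F7. The pooled level was 0.318 CPM in ctrl (95% Poisson interval 0.0655 to 0.928), 0.258 CPM in cKO (0.0947 to 0.562) and 0.477 CPM in dKO (0.155 to 1.11). The 3 intervals overlapped. A pooled level weights each mouse by its depth, and the mean of the single mice put cKO above ctrl instead, at 0.164 ± 0.28 CPM in ctrl (SD, n = 7), 0.341 ± 0.39 in cKO and 0.790 ± 1.33 in dKO (n = 4 each). Over the 4 effectors together, ctrl mice had 3 counts, or 0.318 CPM, cKO mice 12, or 0.516 CPM (0.267 to 0.902), and dKO mice 10, or 0.953 CPM (0.457 to 1.75). As means over mice, the summed level of the 4 was 0.164 ± 0.28 CPM in ctrl, 0.676 ± 0.60 in cKO and 1.43 ± 1.06 in dKO, further apart than the pooled levels, on 1 to 5 counts in each mouse that had any. At least 1 effector count was seen in 2 of 7 ctrl mice and in all 4 cKO and all 4 dKO mice. The ctrl interval of 0.0655 to 0.928 CPM overlaps both others, and the ctrl mice with a count were the deepest and the second deepest. Among dKO mice, T2 had 1 effector count at 552186 counts in all, and T8 had 3, all of *Bst2*, at 1023405. Ctrl mouse S1 had none at 1829617. The part of depth in which mice had a count was not tested.

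**Figure D3:**
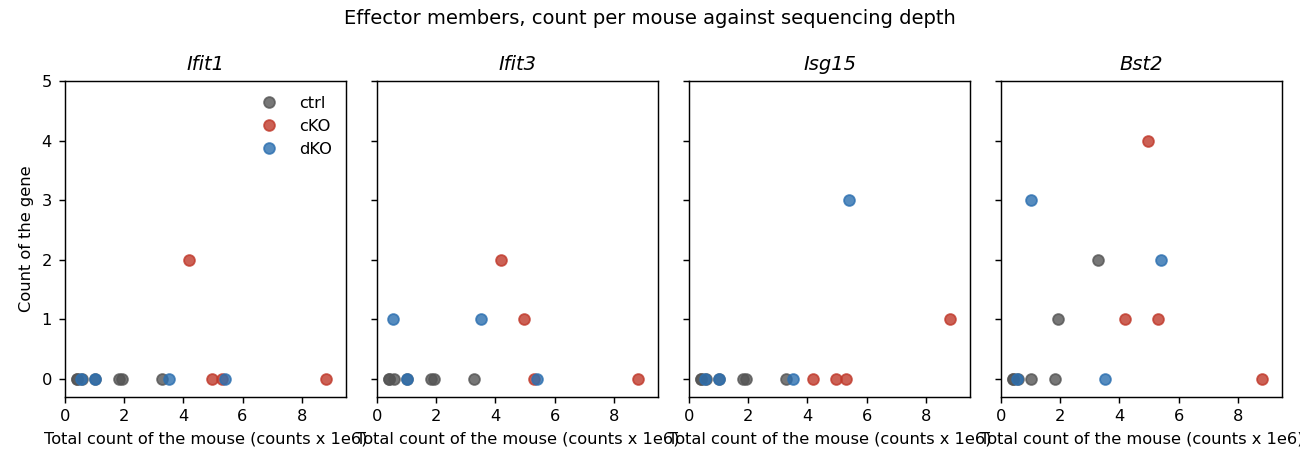
Count of *Ifit1*, *Ifit3*, *Isg15* and *Bst2* in each mouse (y axis) against the total count of that mouse in units of 1e6 counts (x axis), coloured by group, where points at the same place lie over each other. No gene exceeds 4 counts in any mouse, and the ctrl mice sit at the shallow end, none above 3266227 counts.

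The wider pathway was described through 108 further genes in 8 lists, none of which holds one of the 9. Of these 108, 22 had no count in any mouse, 39 had between 1 and 19 counts in all, and 47 had at least 20. Some of the zeros cannot be read, for overlap on the same strand. *Irf8*, *Ifi203*, *Igtp* and *Ifitm2* had 0%, 0.813%, 0.772% and 4.34% of their spans free. None of the 108 passed an FDR of 0.05 in any of the 4 comparisons with all mice (edgeR), a count of 0 that again stands beside 0.16%, 0.0501%, 0.052% and 0.025% of all genes. At an unadjusted p under 0.05, among genes with at least 20 counts, 0 were higher and 2 lower in cKO versus ctrl, and 4 higher and 1 lower in dKO versus ctrl. Over all genes with at least 20 counts, the shares were 5.93% higher and 4.22% lower in cKO versus ctrl, and 4.57% higher and 2.08% lower in dKO versus ctrl. The median log2 fold change of the list genes with at least 20 counts was -0.02 in cKO versus ctrl (43 genes) and 0.02 in dKO versus ctrl (39 genes), beside 0.03 and 0.03 over all genes with at least 20 counts.

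All 13 interferon ligands, *Ifnb1*, *Ifna1* and others for type I, *Ifng* for type II and *Ifnl2* and *Ifnl3* for type III, were listed at 0 in every mouse. Over all 43176742 counts, no count allows up to 0.0695 CPM. *Ifnl2*, with none of its span free on its strand, and *Ifng*, with 43.8% free, cannot be read in full. The receptor chain *Ifnar1* was at 86.7 ± 11.5 CPM in ctrl (SD, n = 7), 97.6 ± 7.80 in cKO and 95.7 ± 16.6 in dKO (n = 4 each). The kinase *Jak2* was at 98.4 ± 11.97 CPM in ctrl, 115 ± 11.1 in cKO and 102 ± 10.1 in dKO. Their log2 fold changes lay between 0.05 and 0.19, each with an edgeR FDR above 0.05. Summed over the 16 receptor and signalling genes, the level ran from 327 to 406 CPM in ctrl, from 384 to 438 in cKO and from 373 to 427 in dKO, and 3 of the 4 cKO mice lay above every ctrl mouse. None of the 16 passed an FDR of 0.05 (edgeR). Transcripts of the receptor side were counted while the ligands had none. Levels here are not scaled to gene span, which is 750 bases for *Ifnb1*, 22204 for *Ifnar1* and 61253 for *Jak2*. They do not rank the receptor side against the ligands.

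On the DNA sensing arm, *Aim2*, the inflammasome sensor of DNA, was at 64.6 ± 14.4 CPM in ctrl, 68.2 ± 20.5 in cKO and 67.8 ± 20.5 in dKO. *Tbk1*, the kinase that phosphorylates IRF3, was at 44.4 ± 8.60, 46.4 ± 2.37 and 39.7 ± 11.9 CPM. These levels are not scaled to gene span, which is 115162 bases for *Aim2* and 40333 for *Tbk1*, and do not rank the 2 genes. For both, cKO and dKO differed from ctrl by less than the SD among ctrl mice. *Ikbke* ran from 0 to 7.00 CPM in ctrl, from 1.14 to 4.47 in cKO and from 0 to 6.47 in dKO. It had the highest log2 fold change of this arm in dKO versus ctrl, 1.33, and in *Knl1*-deleted versus ctrl, 1.06. At an unadjusted edgeR p under 0.05, 1 of the arm's 4 genes with at least 20 counts was higher in dKO versus ctrl. Over all such genes the share was 4.57%. The sensor *Cgas* and the adaptor *Sting1*, picked for their role after their values were seen, had 21 and 11 counts over the 15 mice. *Cgas* ran from 0 to 1.68 CPM in ctrl, from 0 to 1.59 in cKO and from 0 to 2.77 in dKO. *Sting1* ran from 0 to 0.941 CPM in ctrl, from 0 to 0.23 in cKO and from 0 to 1.21 in dKO. The highest values rest on 3 counts of *Cgas* in T8 and 4 of *Sting1* in F1. Among genes that remove or edit nucleic acid, *Adar*, which edits double-stranded RNA, was at 81.4 ± 15.8, 91.7 ± 8.95 and 90.1 ± 4.02 CPM in ctrl, cKO and dKO, and *Rnaseh2b*, a subunit of the RNase that cuts RNA in RNA-DNA hybrids, at 27.5 ± 8.83, 25.0 ± 5.21 and 27.5 ± 4.87 CPM. On the RNA sensing arm, *Eif2ak2*, which encodes the kinase PKR, was at 7.30 ± 7.49, 6.24 ± 1.84 and 6.37 ± 3.85 CPM. *Mavs*, the adaptor that passes on the signal of MDA5, was at 4.76 ± 3.201 CPM in ctrl, 3.00 ± 0.79 in cKO and 5.84 ± 4.57 in dKO. Its log2 fold change of -0.71 in cKO had an unadjusted edgeR p of 0.0475 and did not pass an edgeR FDR of 0.05. Leaving out 1 mouse, that p ran from 0.0157 (without cKO mouse S2) to 0.255 (without ctrl mouse S1). In dKO the log2 fold change of *Mavs* was -0.12 (SE 0.52). Each of these lists had its fold changes on both sides of 0.

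The list of 40 further interferon-stimulated effectors held 36 with at least 1 count, but only 10 with at least 20 in cKO versus ctrl and 8 in dKO versus ctrl. *Ifit2*, a relative of *Ifit1* and *Ifit3* in the same gene cluster, had the highest level and was at 6.30 ± 6.13 CPM in ctrl (SD, n = 7), 8.82 ± 1.25 in cKO and 7.45 ± 3.08 in dKO (n = 4 each). Its log2 fold change was 0.41 in cKO (SE 0.30) and 0.28 in dKO (SE 0.40). *Rtp4*, a chaperone for receptors and an interferon-stimulated gene, was at 8.05 ± 5.00, 4.41 ± 1.17 and 6.24 ± 2.501 CPM, with a log2 fold change of -0.72 in cKO (SE 0.37). These 2 fold changes had opposite signs in cKO, but no gene of the list with at least 20 counts reached an unadjusted edgeR p under 0.05 there. Gene *Gm45338* overlaps *Rtp4* on the same strand and leaves 57.6% of its span free. The summed level of the 40 genes was between 23.9 and 53.8 CPM in ctrl, between 29.8 and 34.3 in cKO and between 26.5 and 38.8 in dKO, every cKO and dKO mouse inside the ctrl range. Of the 32 genes of this list with a promoter window, 56.2% held the ISRE core.

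**Figure D4:**
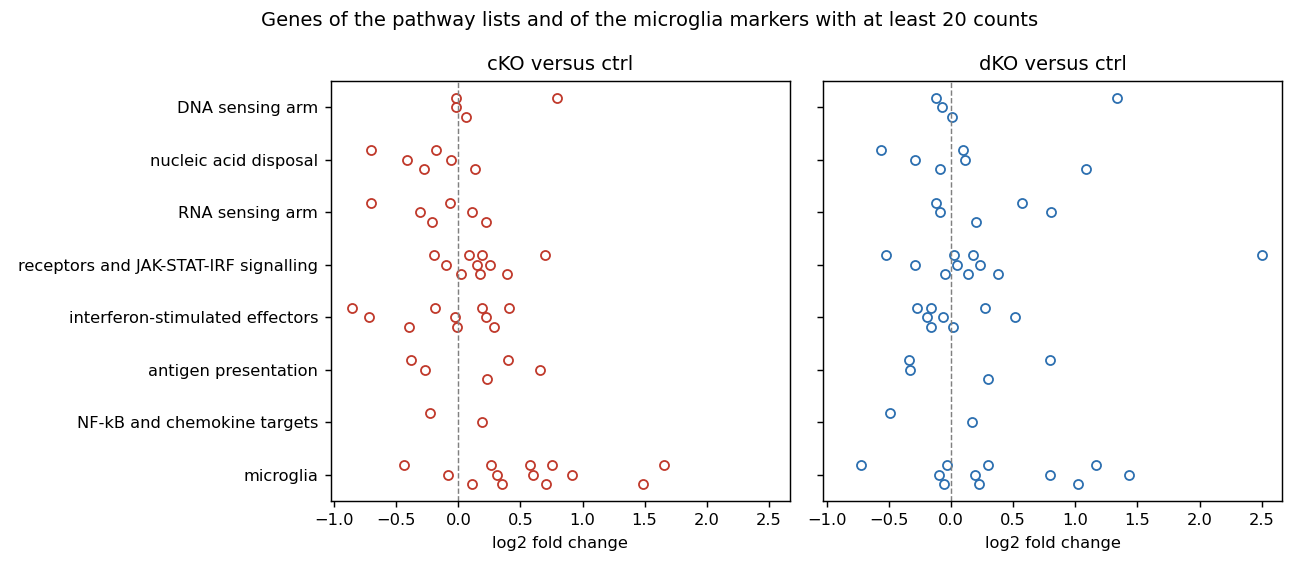
Log2 fold change (x axis) of the genes with at least 20 counts in 7 pathway lists and in the microglia marker list (y axis), for cKO versus ctrl (left) and dKO versus ctrl (right). Each point is a gene, none of them at an edgeR FDR under 0.05, with points shifted up and down within a list only to separate them. The pathway lists spread on both sides of 0. The interferon ligands are not shown, as none had a count.

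For antigen presentation, *Tapbp*, a chaperone of peptide loading, was at 12.3 ± 6.92 CPM in ctrl against 8.36 ± 1.14 in cKO and 8.46 ± 0.90 in dKO. *B2m*, the light chain of MHC class I, was at 3.87 ± 1.94 CPM in ctrl against 4.41 ± 0.29 and 4.60 ± 1.49. Of the NF-kB targets, *Nfkbia*, an inhibitor of that pathway, was at 3.33 ± 1.91 CPM in ctrl, with 3.37 ± 1.29 in cKO and 2.25 ± 1.15 in dKO. *Tnfaip3*, another inhibitor, was at 2.33 ± 1.67 CPM in ctrl, with 2.75 ± 0.86 and 2.54 ± 1.09. None of these differences was larger than the SD among ctrl mice.

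Markers of other cells in the tissue were measured beside these values. Of 17 microglia markers, 16 had counts, and *Itgam* was at 0 with 0.077% of its span free on its strand. None of these 17 passed an FDR of 0.05 in any comparison (edgeR). Over the 17, the summed microglia markers ran from 15.8 to 35.6 CPM among ctrl mice, from 23.8 to 49.97 among cKO mice and from 24.02 to 35.7 among dKO mice. Of the 13 with at least 20 counts in cKO versus ctrl, 4 were higher and 0 lower at an unadjusted p under 0.05, where 5.93% of all genes with at least 20 counts were higher. In dKO versus ctrl, 3 of 11 were higher and 0 lower, beside 4.57% of all genes. Of 8 markers of meninges and pericytes, 7 had at least 20 counts in cKO versus ctrl. Of these, 1 was higher and 3 lower at an unadjusted p under 0.05, beside 5.93% and 4.22% of all genes. Their median log2 fold change was -1.49, but 0.22 in dKO versus ctrl. The summed level of the 8 ran from 33.3 to 110 CPM in ctrl, from 37.2 to 50 in cKO and from 26.5 to 111 in dKO. In ctrl, T3 and T4 were at 110 and 73.4 CPM, and no other mouse exceeded the 45.0 CPM of mouse 6. Of 6 erythroid markers, 3 were higher in dKO versus ctrl at an unadjusted p under 0.05, beside 4.57% of all genes. In that comparison *Hba-a2*, a globin gene with a close copy, passed an FDR of 0.05 (log2 fold change 1.98, edgeR FDR of 0.0203). The erythroid sum was 9.41 to 25.0 CPM in ctrl, 17.5 to 28.7 in cKO and 24.9 to 30.8 in dKO. Summed endothelial markers ran from 74.8 to 138 CPM in ctrl, from 84.9 to 107 in cKO and from 92.8 to 196 in dKO, and 1 of 10, *Slco1a4*, passed an FDR of 0.05 as lower in cKO on 14 counts, 0 of them in cKO. Of 5 markers of lymphocytes and neutrophils, 3 had a count, and *Cd3e* and *S100a8* were at 0. Summed cortical progenitor and neuron markers were at 979 to 1471 CPM across groups, with *Sox2* and *Tubb3* at 0 and no part of their spans free, and *Eomes* and *Emx1* passed an FDR of 0.05 as lower in cKO (log2 fold changes of -1.13 and -0.84). The part of these cells in the levels of the 9 genes was not tested.

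The genes whose pattern over the 15 mice was most like that of *Stat2*, by Spearman's rho of log2 CPM among 9177 genes with a mean of at least 10 CPM, were *Pomk* (rho 0.88), *Rxra* (0.87) and *Wdr20* (0.84). The mice share libraries, batches and depth with both genes of each pair, so these values describe likeness only. *Pomk* ran from 6.67 to 28.2 CPM and *Wdr20* from 83.7 to 101 CPM, a much narrower relative range than that of *Stat2*.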

How the data were processed

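RNA-seq libraries of E15.5 cortex were trimmed by the authors with cutadapt, aligned with STAR, deduplicated by UMI with UMI-tools and counted per gene with htseq-count (cutadapt 1.13, STAR 2.5.2a, UMI-tools 0.5.3 and HTSeq 0.6.1p1 in the submitters' processing notes). The deposited values are whole counts per gene and library, without normalization. The annotation release and the feature counted are not given in the sources used here, and from the zero counts of nested genes, whole spans appear to have been counted by strand. The 5 summary lines were left out, the 2 libraries of mouse S2 were added, and symbols and coordinates came from GENCODE for GRCm38, which matched 51633 of 51912 identifiers.

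Each comparison was fitted with edgeR 4.0.16 in R 4.3.3 (TMM, glmFit, glmLRT, Benjamini-Hochberg over all listed genes, no covariate, only the mice compared). The SE is the log2 fold change divided by the root of the likelihood ratio statistic, and a 95% interval takes the normal quantile of that SE. No fold change is given under 20 counts. Poisson intervals are exact, and pooled levels are not TMM-scaled. The fit was tested on simulated data. p-values measure the spread between mice, littermates included.

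Genes named are the 9 members, *Knl1*, *Trp53*, the 2 genes of highest mean CPM of each pathway list (any called gene would replace them), and the 3 most like *Stat2*. Other genes were named after their values were seen, for a role, an overlap or a pattern. Members and lists were chosen with earlier results of these data known. Of the lists, 1 pathway gene and 1 microglia marker are not reported here. Alternatives were a quasi-likelihood F test, DESeq2 1.42.0, RLE factors, filterByExpr, a fit of all 3 groups, batch, litter or sex as a covariate, wild-type ctrl mice only, 1 batch only, mice of at least 1000000 counts, library S2 or S2b alone, leaving out each mouse, and, chosen after seeing the data, leaving out the litter of F1, F3 and F7, or each mouse for 4 pathway genes. scipy 1.17.1 and matplotlib 3.10.9 were used in Python 3.11.15.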

Additional observations from a re-analysis of the deposited data

Results flagged for a closer look

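Of 20 combinations of a gene and a group with any count, 4 had a mouse far from the rest of its group. The rate of about 1 in 20 that chance gives holds for continuous values and not for counts this low. *Ifit1* was at 0.5001 CPM in cKO mouse 7 and at 0 in the other 3 cKO mice. *Isg15* was at 0.114 CPM in cKO mouse S2 and at 0.582 CPM in dKO mouse F7, and at 0 in the other 3 mice of each group. *Bst2* was at 2.77 CPM in dKO mouse T8 on 3 counts. The summed endothelial markers of T8, at 196 CPM, and its summed meninges and pericyte markers, at 111 CPM, were the highest of the 15 mice, and their part in the *Bst2* value was not tested. Each of these values rests on 1 to 3 counts, and in a group where every other mouse is at 0 a single count is enough to stand apart.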

How the results depend on the processing

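No gene of the 9 passed an FDR of 0.05 in any of the 96 alternative fits, and the smallest FDR among 379 refitted fold changes was 0.441. The direction was kept in 328 of these and turned in 51. *Irf3* was lower in dKO than in ctrl in all 23 alternatives, between -0.95 and -0.10, with an unadjusted p under 0.05 in 16 (edgeR or DESeq2). The values that turned belong to fold changes whose 95% intervals span 0. Low counts limit these results, with 4 effectors at too few counts for a fold change, and *Trex1* cannot be read for its overlap. Whether depth or a low level left so few effector counts was not tested. The design is a limit as well, since all dKO mice were in batch 3. Of the ctrl mice, 4 of 7 had at most 1021502 counts. No replicate name is shared between groups, but litters are, and litter was fitted as a covariate. The litter of F1, F3 and F7 held no ctrl mouse, and with litter in the model it gives no contrast with ctrl. There, dKO versus ctrl rests on T2 and T8 against T3, T4 and T5, and F3 adds nothing to cKO versus ctrl. Where a value moved, the cause was not tested, except that fewer mice enter the fits that leave mice out.

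The number of genes under an FDR of 0.05 was 83, 26, 27 and 13 in cKO versus ctrl, dKO versus ctrl, cKO versus dKO and *Knl1*-deleted versus ctrl. It became 352, 113 and 184 in the first 3 with the quasi-likelihood F test, 138, 8, 7 and 44 with DESeq2, 138, 14, 14 and 52 with filterByExpr, and 49, 14, 14 and 23 with all groups in one fit. With a covariate it became 17 (dKO versus ctrl) and 3 (cKO versus dKO) for batch, 4 (dKO) and 24 (*Knl1*-deleted) for litter, and 44 (cKO versus dKO) and 22 (*Knl1*-deleted) for sex. It became 16, 17 and 3 against wild-type ctrl mice in cKO, dKO and *Knl1*-deleted mice, 13 within batch 1 in cKO and 30 within batch 3 in *Knl1*-deleted mice. It became 33, 0 and 4 without the litter of F1, F3 and F7, and 52, 62 and 22 (cKO versus ctrl, cKO versus dKO and *Knl1*-deleted) with mice of at least 1000000 counts. Leaving out 1 mouse, it ran from 17 to 373, 17 to 59, 6 to 179 and 1 to 58.

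The log2 fold change of *Ifih1* turned to 0.10 (batch as a covariate) and 0.70 (batch 1) in cKO versus ctrl. In dKO versus ctrl it turned to -0.034 (DESeq2), -0.092 (batch), -1.45 (litter), -0.026 (wild-type ctrl), -0.16 (batch 3) and -1.21 (without the litter of F1, F3 and F7). In *Knl1*-deleted versus ctrl it turned to 0.26 (batch) and 0.050 (mice of at least 1000000 counts). *Stat2* turned to 0.067 without that litter in cKO versus ctrl, and in dKO versus ctrl to 0.0057 (DESeq2), 0.15 (batch), 0.44 (litter), 0.14 (batch 3) and 0.26 (without that litter). In cKO versus dKO *Stat2* turned to -0.073 (DESeq2), -0.047 (RLE), -0.059 (filterByExpr), -0.018 (all groups in one fit), -0.69 (batch), -0.54 (litter), -0.0045 (sex) and -0.039 (library S2 alone). In *Knl1*-deleted versus ctrl it turned to 0.069 (litter) and 0.11 (without that litter). In cKO versus dKO *Irf3* turned to -0.050 (batch) and *Irf9* to -0.33 (batch) and -0.30 (litter).

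Leaving out 1 mouse, *Ifih1* ran from -0.77 to 0.096, *Stat2* from -0.20 to 0.083 and *Irf9* from -0.44 to 0.056 in cKO versus ctrl. In dKO versus ctrl *Ifih1* ran from -0.15 to 0.67 and *Stat2* from -0.22 to 0.12. In cKO versus dKO *Stat2* ran from -0.16 to 0.21 and *Irf9* from -0.051 to 0.31. In *Knl1*-deleted versus ctrl *Ifih1* ran from -0.46 to 0.36, *Stat2* from -0.16 to 0.089 and *Irf9* from -0.40 to 0.0037.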

Other observations

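In cKO mouse 7 some interferon-stimulated genes, picked after their values were seen, had several of their few counts. This mouse held both counts of *Ifit1*, 2 of the 5 of *Ifit3*, the only count of *Ifit3b*, 3 of the 5 of *Mx1* and 4 counts of *Mx2*. Other genes did not follow, as cKO mouse S2 also had 4 counts of *Mx2*, and *Rsad2* and *Usp18* had 4 counts each in cKO mouse 5 against 0 and 1 in mouse 7. The summed level of the 40 interferon-stimulated effectors in mouse 7, at 33.0 CPM, lay inside the range of the other cKO mice. Its *Stat2*, at 21.3 CPM, was the highest in cKO, while its *Ifih1*, at 0.250 CPM, and *Rtp4*, at 3.25 CPM, were the lowest in cKO.

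In dKO mouse F7, which held 3 of the 4 *Isg15* counts, the interferon regulatory factor *Irf5* was at 6.40 CPM against 0 to 4.67 CPM in the other 14 mice, and the lysosomal nuclease *Dnase2a* at 10.5 CPM against 0.543 to 5.54 CPM. The mean of *Irf5* was 2.78 CPM over the 4 dKO mice (SD 2.43) against 0.879 CPM over the 7 ctrl mice (SD 1.71), with an unadjusted p of 0.00254 and an edgeR FDR of 0.781. Mouse F7 held 33 of the 40 dKO counts of *Irf5*, and without it the dKO mean was 1.57 CPM (SD 0.33, n = 3), with an unadjusted edgeR p of 0.134. The log2 fold change of *Dnase2a* in dKO versus ctrl was 1.08, with an unadjusted p of 0.0474 and an edgeR FDR of 1. Without F7, which held 54 of its 67 dKO counts, it was 0.23 (unadjusted edgeR p of 0.728). *Rnaseh2c*, a subunit of RNase H2, had a mean of 16.5 CPM in the 7 ctrl mice (SD 5.45) against 10.2 CPM (SD 3.13) over all 8 *Knl1*-deleted mice, with a log2 fold change of -0.64 against ctrl (unadjusted p of 0.00677, edgeR FDR of 0.717). Without cKO mouse S2, *Rnaseh2c* passed an FDR of 0.05 in cKO versus ctrl (log2 fold change -0.99, edgeR FDR of 0.0266). In cKO versus dKO without dKO mouse F1, *Irf5* (-2.52, edgeR FDR of 0.00676) and *Dnase2a* (-1.94, edgeR FDR of 0.00592) passed. Without F7 in the same comparison, *Irf5* was at -0.90 (unadjusted edgeR p of 0.182) and *Dnase2a* at -0.48 (0.393). The number of all genes under an FDR of 0.05 moved widely between fits that left out 1 mouse, as given above. The remaining fits of this kind did not bring these genes under an FDR of 0.05.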
